A study of Mus musculus with 9 samples.

Results

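The response of wild-type CD4+ T cells to an antibody against CD40L fixed to the culture plate was described from 6 RNA-seq libraries of a series of 9. They were chosen by their column names: the 3 libraries of wild-type cells on anti-CD40L and the 3 of wild-type cells on the isotype control antibody. All came from spleens of C57BL/6 mice labelled wt. According to the labels' protocols, naive CD4+ T cells had been sorted by flow cytometry and were put on plates that carried 1 µg/ml of an antibody against CD3e and 19 µg/ml of either anti-CD40L or the isotype antibody. Both groups were therefore stimulated through the T cell receptor complex, and the second antibody is what set them apart. The remaining 3 libraries, from cells labelled KO with genotype cre on the isotype antibody, entered the fit as further evidence on the spread between replicates. They also entered the count filter and the scaling, and were compared with nothing here. How long the cells were cultured and which antibody clones were used is not stated in the labels. Whether replicates were different mice or different wells is not stated either, so the p-values reflect library-to-library spread, which can be technical in origin.

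CD40L is a membrane protein of the TNF family that activated CD4+ T cells display and that binds CD40 on B cells, dendritic cells and macrophages. An antibody fixed to plastic can gather such a molecule at the surface of the T cell. A naive T cell that is activated stops transcribing the genes that keep it small, resting and able to recirculate, among them the IL-7 receptor, S1PR1 and the factor KLF2, and builds ribosomes, nucleotides and chaperones before it divides.

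The deposited table held 42361 transcript rows, reduced to 25160 genes by keeping for each symbol the row of highest total. Of these, 11256 had enough counts to be tested. Totals were 8796453 to 11007159 counts in the isotype libraries, and 11226188, 9787896 and 5316482 in anti-CD40L replicates 1, 2 and 3. Replicate 3 had a count for 11673 genes. The other 5 libraries had one for 14290 to 16105, and for 13656 to 14715 after each was thinned at random to the total of replicate 3. Thus replicate 3 held fewer genes than the others at equal depth. Of the tested genes, 548 had no count in replicate 3, against 0 to 14 in each of the other 5 libraries. On the first principal component of the 6 libraries, with 62.1% of the variance, replicate 3 lay at 80.09 and the others between -26.34 and -0.16. On the second, with 20.2%, anti-CD40L replicates 1 and 2 lay at 37.37 and 20.7, and replicate 3 at -12.08 beside the isotype libraries at -17.41 to -12.44. Results that turn on this library are therefore given with and without it.

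**Figure D1:**
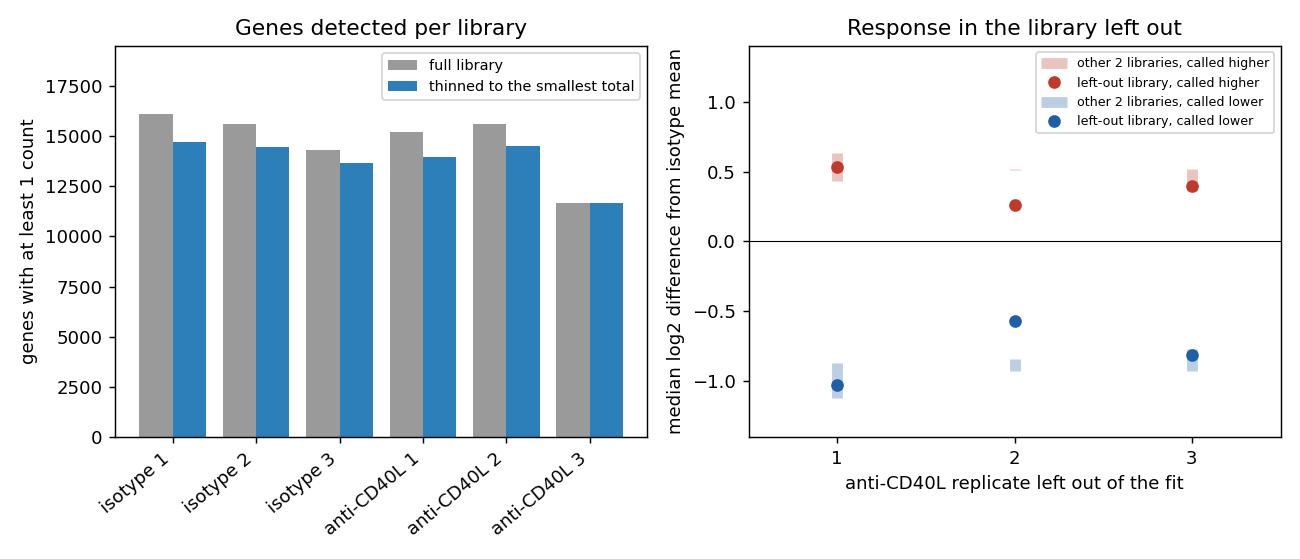
Left, genes with at least 1 count (vertical axis) in each of the 6 libraries, in full and after thinning to the smallest total; anti-CD40L replicate 3 reached 11673 and each of the others at least 13656. Right, the median log2 difference from the isotype mean (vertical axis) of genes called without the anti-CD40L replicate on the horizontal axis, in that left-out library (points) and over the range of the other 2 (bars), higher genes in red and lower genes in blue; replicate 3 lay within the bars and replicate 2 nearer to 0 than they.

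The labelled cell type was checked first. The 10 defining genes of αβ CD4+ T cells, among them Cd4, Cd3e, Cd28 and Lck, summed to 4665 to 5098 CPM (each count as a share of the scaled library total) in isotype libraries and to 4606 to 4854 CPM on anti-CD40L. Their lowest BH-adjusted p was 0.145, for Cd3d (edgeR). Here and below, edgeR stands for its quasi-likelihood test, BH for the Benjamini-Hochberg adjustment over all tested genes, and a gene was called at an adjusted p under 0.05. Levels are means ± SD over n = 3 libraries, and the fits that each left out 1 of the 6 libraries are called leave-one-out fits. Cd40lg, the gene of the antibody's target, was at 142, 153 and 189 CPM in isotype and at 109, 132 and 163 CPM in anti-CD40L libraries. The groups overlapped, and the gene was not called (log2 fold change -0.27, SE 0.14; BH-adjusted p = 0.228, edgeR).

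Anti-CD40L changed many genes by small amounts and few by large ones, and the large changes were mostly decreases. Of the 11256 genes tested, 1055 were called (9.37%), 328 of them higher (2.91%) and 727 lower (6.46%). The median log2 fold change was 0.44 among genes called higher and -0.81 among those called lower, and -0.01 over all tested genes. At least 2-fold changes were reached by 20 genes called higher and 262 called lower, and at least 4-fold changes by 2 and 71. The 3 libraries of each group did not overlap for 328 of 328 genes called higher and 724 of 727 called lower, where 32.6% of all tested genes had groups apart. In bulk RNA, fewer cells expressing a gene and less RNA of it per cell cannot be told apart.

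The higher and lower genes differed in their level. Genes called higher had a median of 114.7 CPM and those called lower 39.55 CPM. When the tested genes were ordered by level and divided into 5 bins of equal size, the calls higher numbered 6, 28, 38, 82 and 174 from the lowest bin to the highest, and the calls lower 73, 177, 147, 176 and 154. The median log2 fold change of all genes in these bins went from -0.20 to 0.07, and from -0.18 to 0.07 without anti-CD40L replicate 3. Together the genes called higher took 6.24% to 6.58% of each isotype library and 7.85% to 8.98% of each anti-CD40L library. Those called lower took 6.78% to 7.10% and 4.17% to 4.74%.

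**Figure D2:**
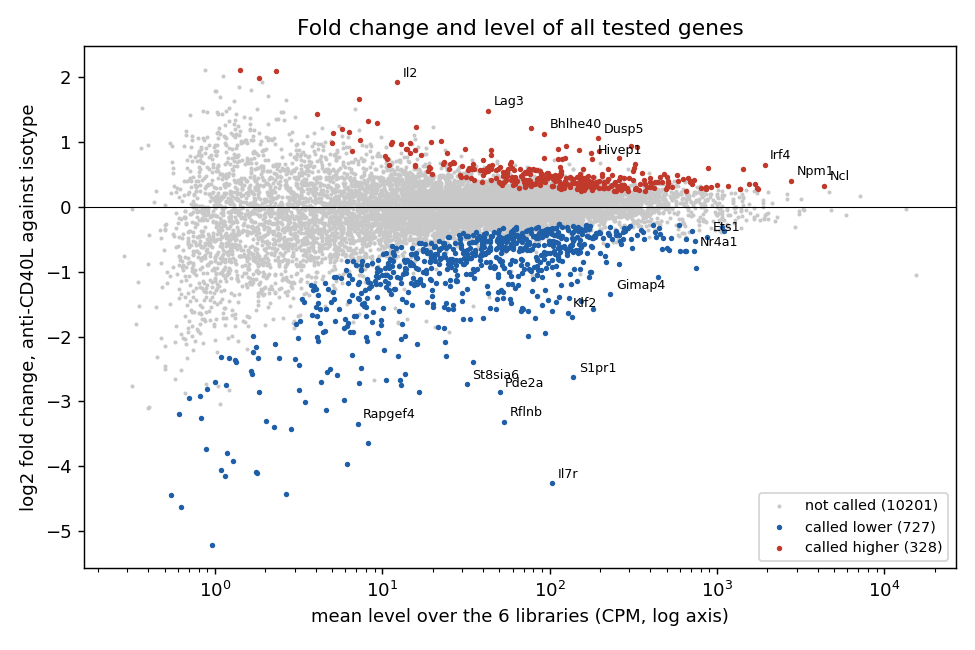
Log2 fold change of anti-CD40L against isotype (vertical axis) by the mean level over the 6 libraries in CPM (horizontal log axis) for the 11256 tested genes. The 727 genes called lower reach from low to high levels, with Il7r at -4.27 the lowest of those with at least 5 CPM, and most of the 328 called higher lie at high levels with changes under 2-fold.

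The number of calls depended on single libraries, and the decreases less so than the increases. It was 486 without anti-CD40L replicate 1, 1210 without replicate 2 and 990 without replicate 3. Without isotype replicate 1, 2 or 3 it was 495, 545 or 530. Of the 727 genes called lower, 319 were called in each of the 6 leave-one-out fits, and of the 328 called higher, 42 were. Among those 42 were the T cell genes Lag3, Irf4, Il2, Il2ra, Tnfrsf4, Cd200 and Rgs1, the signalling and transcription genes Dusp5, Bhlhe40, Hivep1 and Tfdp1, and the survival and p53 genes Bcl2l1, Zmat3 and Ccng1. This list of 42 was put together after the values were seen.

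Il7r, the IL-7 receptor chain that keeps resting T cells alive, was the largest decrease among genes with a mean of at least 5 CPM. It was at 229, 139 and 220 CPM in isotype libraries and at 6.89, 12.8 and 11.4 CPM on anti-CD40L. The highest anti-CD40L library was more than 10-fold below the lowest isotype library, and the change was 19.3-fold lower (log2 fold change -4.27, SE 0.23; BH-adjusted p = 4.21e-07, edgeR). Rflnb, which encodes refilin B, a partner of the actin crosslinker filamin, had the smallest p of all genes. It was at 103, 84.1 and 104 CPM on isotype and at 8.68, 10.4 and 10.3 CPM on anti-CD40L. Each group was tight and far from the other, 9.96-fold lower on anti-CD40L (log2 fold change -3.32, SE 0.16; BH-adjusted p = 2.18e-07, edgeR). Without replicate 3 the log2 fold change of Rflnb was -3.34 (BH-adjusted p = 1.24e-05, edgeR).

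Pde2a and St8sia6 also fell by large factors. Pde2a, a phosphodiesterase that degrades cAMP and cGMP, was at 103, 70.5 and 91.8 CPM on isotype and at 7.25, 16.6 and 13.2 CPM on anti-CD40L, 7.25-fold lower (BH-adjusted p = 3.62e-05, edgeR). St8sia6, which adds sialic acid to glycans, was at 61.9, 52.1 and 54.1 CPM on isotype and at 8.59, 9.93 and 5.92 CPM on anti-CD40L, 6.68-fold lower (BH-adjusted p = 3.49e-06, edgeR). Both pairs of groups were far apart, and anti-CD40L replicate 3 was not the extreme library for Pde2a. S1pr1, the receptor that leads T cells out of lymphoid organs, went from 238 ± 36.9 to 38.7 ± 5.36 CPM. Smpdl3a, a secreted phosphodiesterase related to acid sphingomyelinase, went from 23.7 ± 1.76 to 3.82 ± 0.987 CPM. The remaining 4 of the 10 decreases of smallest p were Pik3ip1, an inhibitor of phosphoinositide 3-kinase, Als2cl, an exchange factor gene related to alsin, Phf1, a Polycomb-like protein, and Cdkn1b, the cell cycle inhibitor p27. They fell as well (log2 fold changes -2.39, -1.60, -1.58 and -1.57; BH-adjusted p = 2.44e-05, 1.11e-05, 3.03e-05 and 4.09e-05, edgeR). Phf1 was at 36.1, 37 and 37.8 CPM on isotype and at 12.3, 13 and 11.8 CPM on anti-CD40L, the narrowest groups of these 10.

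Increases were smaller. Dusp5, a nuclear phosphatase that inactivates ERK, was at 103, 133 and 140 CPM on isotype and at 234, 261 and 295 CPM on anti-CD40L. The lowest anti-CD40L library was well above the highest isotype library, and the gene rose 2.09-fold (log2 fold change 1.06, SE 0.12; BH-adjusted p = 0.000166, edgeR). Bhlhe40, a transcriptional repressor that T cells induce on activation, was at 70, 48.9 and 54.6 CPM on isotype and at 143, 110 and 128 CPM on anti-CD40L. It rose 2.19-fold, with groups apart (log2 fold change 1.13, SE 0.14; BH-adjusted p = 0.000322, edgeR). Lag3, an inhibitory receptor, was at 17, 23.5 and 26.8 CPM on isotype and at 50.8, 58.5 and 80.2 CPM on anti-CD40L. Replicate 3 was the highest of its group, and the log2 fold change of Lag3 was 1.49 with it and 1.30 without it (BH-adjusted p = 0.000395 and 0.0011, edgeR).

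Hivep1, a large zinc finger factor that binds enhancers of the NF-κB kind, had the smallest p of the genes called higher. It was at 130, 129 and 145 CPM on isotype and at 216, 220 and 238 CPM on anti-CD40L, 1.67-fold higher (BH-adjusted p = 0.000148, edgeR). Irf4, a factor whose level follows the strength of T cell receptor signals, was at 1309, 1549 and 1631 CPM on isotype and at 2402, 2306 and 2344 CPM on anti-CD40L. Its 3 anti-CD40L libraries lay close together and above all isotype libraries (log2 fold change 0.65, SE 0.10; BH-adjusted p = 0.0011, edgeR). Cpd, the carboxypeptidase D of the Golgi and cell surface, was at 9.84, 9.77 and 9.17 CPM on isotype and at 29.5, 22.5 and 14.9 CPM on anti-CD40L, with replicate 3 nearest to isotype. Its log2 fold change was 1.24 with replicate 3 and 1.45 without it (BH-adjusted p = 0.00368 and 0.000594, edgeR). Among other genes of small p were Bcl2l1, the survival protein BCL-XL, Pdgfb, a growth factor chain, Ergic1, a membrane protein between endoplasmic reticulum and Golgi, and Ankrd50, an ankyrin repeat protein of endosomal recycling. They rose by 0.94, 0.99, 0.48 and 0.88 on the log2 scale (BH-adjusted p = 0.000537, 0.00232, 0.00204 and 0.0025, edgeR).

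**Figure D3:**
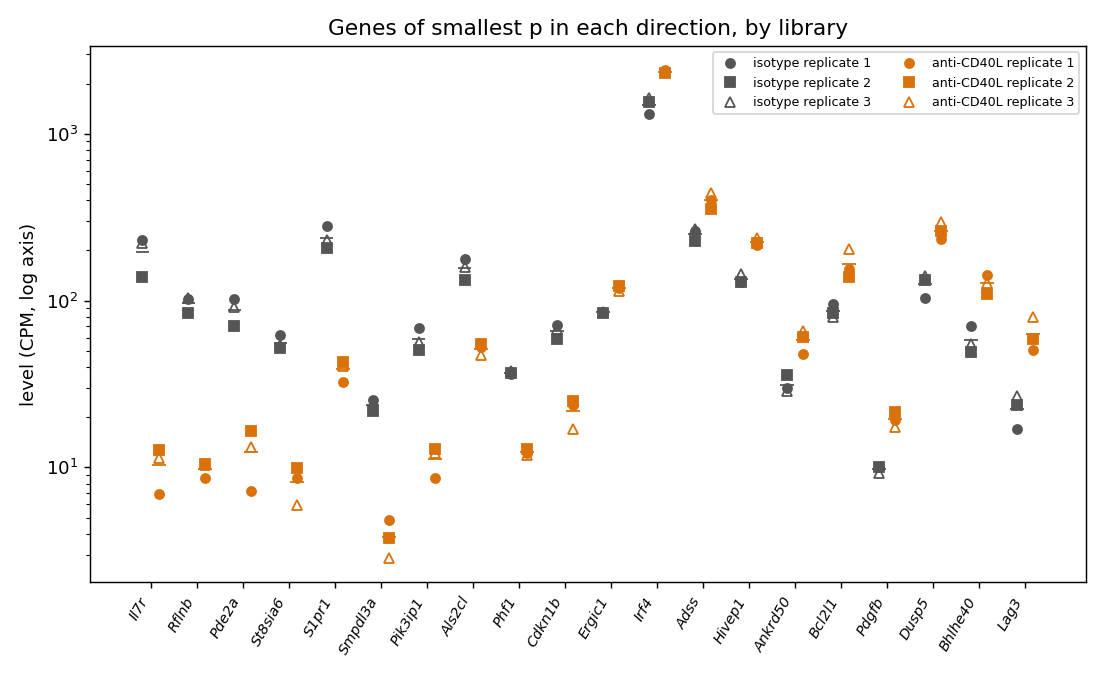
Level in CPM (vertical log axis) in each of the 6 libraries for the 10 genes of smallest p in each direction, isotype in grey and anti-CD40L in orange, with a bar at each group's mean. The genes were chosen among those whose groups did not overlap. The open triangles of anti-CD40L replicate 3 therefore lie on the same side of the isotype libraries as replicates 1 and 2 in all 20.

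The promoters of the genes that lead each direction are shown because these genes mark the ends of the response, and their start regions can be compared. They belong to the 2 genes per direction of smallest p, among the 15 of largest change, that had an entry. Each sequence runs from 250 bases before to 50 bases after the RefSeq start, 5′ to 3′ on the gene's strand, from the RefSeq annotation of GRCm38.p6, the assembly that mm10 represents. Capitals mark GGGGCGGGG, a GC box of the kind bound by SP and KLF factors, or its reverse complement. They are Il7r at chr15:9529827-9530126 on the minus strand, Rflnb at chr11:76027733-76028032 on the minus strand, Dusp5 at chr19:53528895-53529194 on the plus strand and Cpd at chr11:76846959-76847258 on the minus strand. Bhlhe40 and Lag3 had no entry.
Il7r: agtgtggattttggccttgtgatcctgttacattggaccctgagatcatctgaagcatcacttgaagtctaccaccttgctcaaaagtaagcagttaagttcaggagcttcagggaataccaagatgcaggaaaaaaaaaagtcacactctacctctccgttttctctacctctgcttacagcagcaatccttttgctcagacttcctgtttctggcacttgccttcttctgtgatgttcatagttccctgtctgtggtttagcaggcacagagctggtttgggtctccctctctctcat
Rflnb: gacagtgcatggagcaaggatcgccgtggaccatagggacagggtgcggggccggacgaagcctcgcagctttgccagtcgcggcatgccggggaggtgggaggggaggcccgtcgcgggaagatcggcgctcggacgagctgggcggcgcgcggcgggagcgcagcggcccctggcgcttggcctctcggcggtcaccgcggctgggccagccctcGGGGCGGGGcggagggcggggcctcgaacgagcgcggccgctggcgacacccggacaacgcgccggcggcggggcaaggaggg
Dusp5: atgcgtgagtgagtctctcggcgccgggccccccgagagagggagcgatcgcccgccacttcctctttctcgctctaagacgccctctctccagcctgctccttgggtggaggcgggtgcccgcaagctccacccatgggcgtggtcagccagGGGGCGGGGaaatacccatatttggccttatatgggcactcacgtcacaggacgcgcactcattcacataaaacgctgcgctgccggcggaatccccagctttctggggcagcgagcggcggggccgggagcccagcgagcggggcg
Cpd: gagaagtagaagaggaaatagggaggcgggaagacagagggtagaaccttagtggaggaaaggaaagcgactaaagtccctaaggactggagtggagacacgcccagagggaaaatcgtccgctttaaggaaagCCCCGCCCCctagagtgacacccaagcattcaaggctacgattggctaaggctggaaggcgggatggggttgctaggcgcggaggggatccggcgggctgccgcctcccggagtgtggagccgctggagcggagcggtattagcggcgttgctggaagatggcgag

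One GC box was found in the promoters of Rflnb, Dusp5 and Cpd, genes of both directions, and no searched motif in that of Il7r. GGGGCGGGG was in 11.6% of the 27025 promoters of the table, in 22.2% of the 9006 of tested genes, in 21.1% of the 265 of genes called higher and in 25.3% of the 589 of genes called lower. CACGTG, the E-box that MYC and other factors bind, was in 7.24% of all promoters, 10.8% of tested, 16.2% of higher and 9.34% of lower genes. GGGGTGTGG, a KLF motif, was in 1.24%, 1.79%, 0.377% and 2.38% in the same order, and GTAAACA, the forkhead motif of FOXO factors, in 3.55%, 2.6%, 0.755% and 3.23%. For the KLF motif this is 1 promoter of a gene called higher and 14 of genes called lower. For the forkhead motif it is 2 promoters of genes called higher and 19 of genes called lower. ACCGGAAGT, an ETS motif, was in 1.1%, 2.54%, 3.02% and 0.849%, with 8 promoters of higher and 5 of lower genes. All motifs were searched on both strands, and a match is a description of letters in this window. The other motifs were TGACGTCA, TGAGTCA with its reverse complement TGACTCA, TTTCNNTTT and GGACTTTCC, of which TTTCNNTTT was in 7.74% of tested, 8.3% of higher and 10.5% of lower genes.

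Interleukin receptors, integrins and G protein coupled receptors had calls that were nearly all decreases. The calls of the TNF receptor superfamily went both ways, with 2 of 17 higher, Tnfrsf4 and Tnfrsf18, and 2 lower, Tnfrsf1a and Tnfrsf1b. This was 23.5% called where 9.37% of all tested genes were. The superfamily's median log2 fold change was still -0.28, with 11 of the 17 below 0. Of the 4, Tnfrsf4 was called in each leave-one-out fit, and Tnfrsf18 only in the one without anti-CD40L replicate 2. Of 27 interleukin receptor and common chain genes tested, 10 fell and 1 rose, which is 40.7% called where 9.37% of all tested genes were. The list's median log2 fold change was -0.28, against -0.01 over all genes. Besides Il7r, the genes lower in each leave-one-out fit were Ifngr1 and Ifngr2, both chains of the interferon-γ receptor, Il6ra, Il18r1 and Il17ra. Ifngr1 was at 134, 95 and 129 CPM on isotype and at 23.5, 34.3 and 33 CPM on anti-CD40L, 3.97-fold lower with groups far apart (BH-adjusted p = 6.97e-05, edgeR). Il18r1 was at 13.2, 10.3 and 13.5 CPM on isotype and at 1.43, 0.912 and 4.01 CPM on anti-CD40L. Replicate 3 was nearest to isotype here, and the log2 fold change was -2.72 with it and -3.36 without it (BH-adjusted p = 0.000988 and 0.000259, edgeR). Il17ra went from 177 ± 16.5 to 112 ± 7.22 CPM. Il2ra, the high-affinity chain for IL-2, was the gene that rose, from 628 ± 44.3 to 837 ± 28.7 CPM (BH-adjusted p = 0.00702, edgeR).

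Integrins, the adhesion receptors built of α and β chains, had 6 of 19 tested genes lower and 1 higher. This was 36.8% called, where 9.37% of all tested genes were, and the median log2 fold change was -0.70. Itga4 and Itgb7, which pair into the gut homing receptor α4β7, both fell. Itga4 was at 133, 91.8 and 113 CPM on isotype and at 43, 38.3 and 27.9 CPM on anti-CD40L, and Itgb7 went from 101 ± 20.2 to 34.9 ± 5.06 CPM. Neither pair of groups overlapped (log2 fold changes -1.61 and -1.55; BH-adjusted p = 9.37e-05 and 0.000338, edgeR). Itga6, a laminin receptor chain, and Itgb3 were also lower in each leave-one-out fit. Itgam, a myeloid integrin chain, was lower in the fit of all libraries. Itgb2, the shared chain of the leukocyte integrins, went from 428 ± 71.4 to 303 ± 50.5 CPM, and its call was lost without anti-CD40L replicate 1 or 3 or isotype replicate 2 or 3 (BH-adjusted p up to 0.163, edgeR). Itgb1, the chain that pairs with Itga4 in VLA-4, had a log2 fold change of 0.38, a call that held only without anti-CD40L replicate 2 among the leave-one-out fits (BH-adjusted p up to 0.123, edgeR).

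Of 52 G protein coupled receptors tested, 10 fell, 19.2% called where 6.46% of all tested genes were called lower, with a median log2 fold change of -0.19. The decreases were S1pr1 and S1pr4, both receptors of sphingosine 1-phosphate, Adgre5, the adhesion receptor CD97, Gpr146, the thrombin and protease receptors F2r and F2rl1, Lpar6, the cannabinoid receptor Cnr2, Cxcr4 and the adenosine receptor Adora2a. Adgre5 was at 334, 264 and 221 CPM on isotype and at 76.1, 97.8 and 103 CPM on anti-CD40L, 2.98-fold lower without overlap (BH-adjusted p = 7.64e-05, edgeR). F2rl1 went from 29.9 ± 5.81 to 10.3 ± 3.66 CPM and S1pr4 from 93 ± 13.8 to 48.2 ± 4.08 CPM. Of the 10, Cnr2 was lost without isotype replicate 1, Lpar6 without isotype replicate 3, and Adora2a without anti-CD40L replicate 1 or isotype replicate 2 (BH-adjusted p up to 0.0668 for Adora2a, edgeR).

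Sialyltransferases, which cap glycans of the cell surface, had 5 of 13 tested genes lower. This was 38.5%, where 6.46% of all tested genes were called lower, and the median log2 fold change was -0.57. After St8sia6, the decreases were St6gal1, St3gal1, St8sia1 and St8sia4. St6gal1, which makes the sialic acid cap recognised by CD22, was at 137, 124 and 136 CPM on isotype and at 46.8, 69.7 and 46.6 CPM on anti-CD40L. St3gal1, the enzyme that caps core O-glycans, was at 141, 159 and 150 CPM on isotype and at 96, 106 and 85.5 CPM on anti-CD40L. Groups did not overlap in either gene (log2 fold changes -1.28 and -0.64; BH-adjusted p = 0.000291 and 0.000901, edgeR). The calls of St8sia1 and St8sia4 were lost without isotype replicate 1, and that of St8sia4 also without anti-CD40L replicate 2 or isotype replicate 3 (BH-adjusted p up to 0.069 and 0.105, edgeR). Of 39 galactosyl and N-acetylglucosaminyltransferases 3 fell, 7.69%, close to the 6.46% of all tested genes called lower. That list's median log2 fold change was -0.12, and 2 of the 3 were called in each leave-one-out fit.

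Several regulators of the cytoskeleton fell and were called in each leave-one-out fit. Arhgef18, a guanine nucleotide exchange factor, was at 189, 125 and 135 CPM on isotype and at 31.1, 42.2 and 44.7 CPM on anti-CD40L. It was 3.84-fold lower and its groups lay far apart (BH-adjusted p = 6.15e-05, edgeR). Arhgap45, a GTPase-activating protein that also gives rise to the minor antigen HA-1, went from 605 ± 53.1 to 286 ± 55.8 CPM. Dock2, the exchange factor through which lymphocytes activate Rac, went from 337 ± 15 to 183 ± 34.9 CPM. Arhgap4 and Arhgef1 fell too (log2 fold changes -1.08 and -0.49; BH-adjusted p = 0.000243 and 0.00328, edgeR). Ablim1, an actin-binding protein, and Flna, the filamin to which refilins bind, went from 636 ± 52.8 to 400 ± 16.6 CPM and from 742 ± 31.5 to 464 ± 84.6 CPM (BH-adjusted p = 0.00042 and 0.0025, edgeR). Not all cytoskeletal genes fell. Of 39 genes of the actin cytoskeleton and migration, 4 fell, Flna among them, and 2 rose, Wipf1 and Septin11. This was 15.4% called where 9.37% of all tested genes were, and neither increase was called in each leave-one-out fit. Of 36 kinesin and dynein genes 3 fell, 8.33% called, with a median log2 fold change of 0.03.

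The called signalling genes mostly fell. Of 17 phosphodiesterases and adenylyl cyclases, 4 fell, 23.5% where 6.46% of all tested genes were called lower: Pde2a, Pde4d, Pde4b and Adcy7. Pde4d went from 66.6 ± 9.92 to 37.3 ± 3.45 CPM, and Rapgef4, a cAMP-activated exchange factor for Rap, was at 14.7, 10.9 and 13.9 CPM on isotype and at 1.7, 1.62 and 0 CPM on anti-CD40L. The 0 was in replicate 3, and the log2 fold change of Rapgef4 was -3.35 with it and -2.97 without it (BH-adjusted p = 0.000286 and 8.35e-05, edgeR). The call of Pde4b was lost without anti-CD40L replicate 1 or 3 or isotype replicate 1 or 3 (highest BH-adjusted p over all alternatives 0.171, edgeR). Of 42 genes of T cell receptor signalling, 8 fell and 1 rose, 21.4% called where 9.37% of all tested genes were. Grap2, the adaptor GADS, was at 273, 203 and 224 CPM on isotype and at 123, 119 and 87 CPM on anti-CD40L, and Themis, an adaptor of the receptor complex, went from 46.9 ± 6.68 to 23.7 ± 2.88 CPM. Both fell with groups apart (log2 fold changes -1.08 and -0.99; BH-adjusted p = 0.000427 and 0.000536, edgeR). Fyb, Skap1, Txk and Rasgrp1 were lower in each leave-one-out fit too. Sla, which dampens receptor signals, was the gene that rose, from 409 ± 42.9 to 534 ± 35 CPM, and its call was lost without anti-CD40L replicate 1 or isotype replicate 1 or 2 (BH-adjusted p up to 0.09, edgeR).

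Genes of other signalling pathways fell as well, several of them inhibitors. In the TGF-β and BMP pathway 5 of 25 fell, 20% where 6.46% of all tested genes were called lower, among them Smad7 and Ski, which restrain SMAD signalling, and the receptor chain Tgfbr2. Smad7 was at 92.4, 90 and 78.2 CPM on isotype and at 33.4, 45.7 and 46.6 CPM on anti-CD40L, 2.09-fold lower without overlap (BH-adjusted p = 0.00034, edgeR). In the Notch and Wnt pathway 5 of 23 fell, 21.7%, and 2 without anti-CD40L replicate 1 or isotype replicate 1, with Axin2, a feedback inhibitor of Wnt, and Maml3, a Notch coactivator, called in each leave-one-out fit. Axin2 went from 23.1 ± 5.15 to 10.6 ± 1.89 CPM. In the phosphoinositide 3-kinase and mTOR pathway 4 of 38 fell and 1 rose, 13.2% called where 9.37% of all tested genes were. The increase, Fnip1, was lost without anti-CD40L replicate 1 or 3 or isotype replicate 2 or 3. Sesn1 and Inpp5d, which restrain mTOR and phosphoinositide signals, went from 79.8 ± 12.5 to 38.4 ± 4.58 CPM and from 93.4 ± 4.93 to 59 ± 11 CPM (BH-adjusted p = 0.000291 and 0.00938, edgeR).

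Among the transcription factor families listed, the KLF factors had the largest share of calls, 36.4% where 9.37% of all tested genes were called. The ETS factors came next with 28.6%. Of 11 KLF factors tested, 4 fell, and all 11 had a fold change below 0, with a median log2 fold change of -0.44. Klf2, which maintains S1pr1 in resting T cells, was at 237, 182 and 164 CPM on isotype and at 57.9, 72.5 and 57.5 CPM on anti-CD40L. The groups lay far apart (log2 fold change -1.63, SE 0.15; BH-adjusted p = 6.97e-05, edgeR). Klf6 and Klf13 fell with log2 fold changes of -1.11 and -0.71. Klf3 was at 88.5, 63.4 and 60 CPM on isotype and at 32.6, 38 and 12.2 CPM on anti-CD40L, replicate 3 the lowest. The Klf3 call was lost without anti-CD40L replicate 1 or isotype replicate 1 (BH-adjusted p up to 0.0694, edgeR). Of 14 ETS factors 3 fell and 1 rose, with a median log2 fold change of -0.08. Of 14 forkhead factors 2 fell, 14.3% called, with a median of 0.01. Ets1 went from 1015 ± 110 to 737 ± 11.6 CPM, with the 3 anti-CD40L libraries at 734, 727 and 750 CPM (BH-adjusted p = 0.00654, edgeR). Nr4a1, an orphan receptor induced early by T cell receptor signals, was at 748, 1037 and 919 CPM on isotype and at 437, 642 and 612 CPM on anti-CD40L. Groups did not overlap, but the call was lost without isotype replicate 2 or 3 (BH-adjusted p up to 0.0678, edgeR). The 316 zinc finger genes named Zfp had 5 higher and 9 lower, 4.43% called, which is below the 9.37% over all genes.

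Of 34 genes of naive and quiescent T cells, 20 fell, 58.8% where 6.46% of all tested genes were called lower. Of the 20, 15 were called in each leave-one-out fit. This list was drawn up with earlier results of these libraries known, so its count is a description. Rasgrp2, an activator of the GTPase Rap, went from 36.8 ± 6.7 to 10.2 ± 2.26 CPM and Tsc22d3, the glucocorticoid-induced leucine zipper, from 76.3 ± 8.25 to 29.4 ± 7.27 CPM. Btg2, an antiproliferative gene, was at 215, 260 and 222 CPM on isotype and at 102, 141 and 104 CPM on anti-CD40L. These decreases were 3.66-fold, 2.64-fold and 2-fold (BH-adjusted p = 0.000217, 0.000299 and 0.000388, edgeR). Txnip, which restrains glucose uptake, went from 163 ± 23.9 to 62.5 ± 6.35 CPM. All 8 GIMAP genes, GTPases of lymphocytes, had a fold change below 0. Of them 6 fell, 75% where 6.46% of all tested genes were called lower. Gimap4 was at 342, 290 and 359 CPM on isotype and at 108, 129 and 156 CPM on anti-CD40L, 2.54-fold lower without overlap. Gimap3 and Gimap8 were also called in each leave-one-out fit, at log2 fold changes of -0.63 and -0.60 (BH-adjusted p = 0.00208 and 0.00138, edgeR).

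Interferon stimulated genes had 16 of 53 tested members lower, 30.2% where 6.46% of all tested genes were called lower. Their median log2 fold change was -1.03, and 49 of the 53 had a fold change below 0. Their calls were more dependent on libraries: 6 of the 16 were called in each leave-one-out fit, and the count was 8 without anti-CD40L replicate 1, 12 without replicate 2 and 11 without replicate 3. Without isotype replicate 1, 2 or 3 it was 9, 15 or 9. Ifi203, an interferon-induced DNA-binding protein gene, was at 60, 36.6 and 57.3 CPM on isotype and at 17.3, 15.9 and 12.4 CPM on anti-CD40L. Ddx58, the RNA sensor RIG-I, was at 24, 15 and 28.4 CPM on isotype and at 2.86, 2.63 and 5.15 CPM on anti-CD40L. Isotype replicate 2 was the lowest of its group in both, and the groups did not overlap (log2 fold changes -1.73 and -2.74; BH-adjusted p = 0.000156 and 0.000344, edgeR). Sp100, a nuclear body protein, went from 151 ± 13.8 to 74.1 ± 8.08 CPM, and Samd9l and Epsti1, both interferon-induced, were lower in each leave-one-out fit. Of 39 TRIM ubiquitin ligases 7 fell and 1 rose, 20.5% called where 9.37% of all tested genes were. The increase, Trim37, was lost in each leave-one-out fit (BH-adjusted p up to 0.132, edgeR), and the count lower was 11 without anti-CD40L replicate 2, 7 without replicate 3 and 5 without any 1 of the other 4 libraries. The decreases were led by the antiviral genes Trim5 and Trim12a with log2 fold changes of -1.95 and -1.26 (BH-adjusted p = 0.000192 and 0.00167, edgeR). Of 8 Toll-like and NOD-like receptors tested, all had a fold change below 0. Of them 3 fell, 37.5% where 6.46% of all tested genes were called lower. Nod1, a cytosolic sensor of bacterial cell walls, was at 9.40, 8.07 and 6.53 CPM on isotype and at 1.97, 2.53 and 2.67 CPM on anti-CD40L, without overlap (BH-adjusted p = 0.0015, edgeR).

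MHC class I genes, whose products present peptides to CD8+ T cells, and related genes had a fold change below 0 in 17 of 17 tested members. Of these 6 fell, 35.3% where 6.46% of all tested genes were called lower. The 6 were H2-Q4, H2-Q7, H2-Q9, H2-M3 and the related genes Tap1 and Tap2. Without anti-CD40L replicate 3 the count was 3, and it was 5 without replicate 2. It was 1 without anti-CD40L replicate 1 or isotype replicate 1, 2 without isotype replicate 2 and 3 without isotype replicate 3. H2-Q4 was at 150, 124 and 147 CPM on isotype and at 79.7, 88.9 and 82.6 CPM on anti-CD40L, and was called in each leave-one-out fit (log2 fold change -0.74, SE 0.15; BH-adjusted p = 0.00836, edgeR). H2-Q7 and H2-Q9 had nearly identical values, at 114 ± 3.4 and 54.5 ± 10.2 CPM for H2-Q7, and their reads may be shared between these close copies. The classical gene H2-K1 and its partner chain B2m, at 1545 ± 35.8 and 1237 ± 152 CPM and at 1295 ± 42.3 and 1045 ± 40.3 CPM, were not called (BH-adjusted p = 0.168 and 0.146, edgeR).

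Lysosomal genes had 10 of 41 tested members lower and 1 higher, 26.8% called where 9.37% of all tested genes were. The count lower was 10 without anti-CD40L replicate 2 or 3, 8 without isotype replicate 2, 5 without isotype replicate 1 or 3 and 4 without anti-CD40L replicate 1. Psap, the precursor of the saposins that help degrade sphingolipids, was at 223, 207 and 216 CPM on isotype and at 135, 150 and 138 CPM on anti-CD40L. Ctsd, the protease cathepsin D, was at 177, 186 and 171 CPM on isotype and at 118, 128 and 128 CPM on anti-CD40L. In both genes the groups were tight and apart (log2 fold changes -0.61 and -0.51; BH-adjusted p = 0.00224 and 0.00545, edgeR). Lgmn and Ctss, further proteases of that compartment, were lower in each leave-one-out fit. Gusb, the glucuronidase, was the gene that rose, and its call was lost without isotype replicate 1 (BH-adjusted p = 0.0627, edgeR).

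Genes that supply building blocks for growth were among those that rose. Of 28 nucleotide synthesis genes tested, 10 rose and 1 fell, 39.3% called, where 9.37% of all tested genes were called and 2.91% were called higher. The list's median log2 fold change was 0.29, and 0.31 without anti-CD40L replicate 3, where 10 rose as well. Adss, which makes the AMP precursor adenylosuccinate, was at 260, 228 and 268 CPM on isotype and at 400, 353 and 442 CPM on anti-CD40L. Atic, the last enzyme of purine ring synthesis, was at 194, 184 and 193 CPM on isotype and at 273, 242 and 251 CPM on anti-CD40L. Groups did not overlap in either, and both were called in each leave-one-out fit (log2 fold changes 0.66 and 0.43; BH-adjusted p = 0.0016 and 0.00387, edgeR). The other 8, Gmps, Paics, Ppat and Prps2 of purine synthesis, Umps and Uck2 of pyrimidine synthesis, and Dut and Rrm1 of deoxynucleotide supply, had log2 fold changes of 0.26 to 0.57. Their calls depended on libraries: 2 or 3 of the list were called higher without anti-CD40L replicate 1 or any 1 isotype library, and 9 without anti-CD40L replicate 2. Ctps2, a CTP synthase gene, went from 77.6 ± 2.5 to 54.5 ± 7.24 CPM, and its call was lost without anti-CD40L replicate 1 (BH-adjusted p = 0.0519, edgeR).

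Ribosome biogenesis factors showed many small increases. The fold change was above 0 for 57 of the 60 tested, and the median log2 fold change was 0.20. Of the 60, 11 rose, 18.3% where 2.91% of all tested genes were called higher. The count was 11 without anti-CD40L replicate 2, 8 without replicate 3 and 1 or 2 without any 1 of the other 4 libraries. Dkc1, which guides pseudouridylation of ribosomal RNA, went from 315 ± 11.1 to 422 ± 32.5 CPM and was the member called in each leave-one-out fit (BH-adjusted p = 0.00668, edgeR). Npm1 and Ncl, the abundant nucleolar proteins nucleophosmin and nucleolin, were at 2443, 2273 and 2419 CPM and at 3920, 3658 and 4067 CPM on isotype. On anti-CD40L they were at 3555, 2748 and 3169 CPM and at 5318, 4528 and 4801 CPM. Replicate 2 was the lowest anti-CD40L library in both genes and still above all isotype libraries. Their log2 fold changes were 0.41 and 0.33 (BH-adjusted p = 0.0209 and 0.0311, edgeR). Of the leave-one-out fits, Npm1 was called without anti-CD40L replicate 2 or 3 and Ncl without replicate 2 (BH-adjusted p up to 0.0945 and 0.131, edgeR).

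Protein folding followed the same form. Of 8 CCT chaperonin genes, whose complex folds actin and tubulin, 4 rose, 50% where 2.91% of all tested genes were called higher. All 8 had a fold change above 0, with a median log2 fold change of 0.25. Cct6a was at 598, 588 and 609 CPM on isotype and at 865, 710 and 784 CPM on anti-CD40L, and Tcp1 at 616, 582 and 656 CPM and at 817, 742 and 825 CPM. Neither pair of groups overlapped, but both calls were lost without anti-CD40L replicate 1 or isotype replicate 2, and that of Tcp1 also without isotype replicate 1 (BH-adjusted p up to 0.0628 and 0.0691, edgeR). The count of CCT genes called was 4 without anti-CD40L replicate 2, 2 without replicate 3 or isotype replicate 3 and 1 without isotype replicate 1. These calls were lost without anti-CD40L replicate 1 or isotype replicate 2. Of 19 heat shock protein genes 4 rose, 21.05% where 2.91% of all tested genes were called higher. Their count was 6 without anti-CD40L replicate 2 and 1 or 2 without any 1 of the other 5 libraries. Of them, Hspd1, the mitochondrial chaperonin HSP60, was called in each leave-one-out fit. Hspd1 was at 1170, 1069 and 1216 CPM on isotype and at 1889, 1464 and 1827 CPM on anti-CD40L, 1.5-fold higher (BH-adjusted p = 0.0041, edgeR).

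Other parts of the gene expression machinery varied in their share of calls. SR and hnRNP splicing proteins had 26 of 31 above 0 and 7 called higher, 22.6% where 2.91% of all tested genes were called higher. The count called was 8 without anti-CD40L replicate 2, 2 without replicate 3, and these calls were lost without any 1 of the other 4 libraries. Cytosolic aminoacyl-tRNA synthetases had 4 of 18 higher, 22.2% where 2.91% of all tested genes were called higher. Their count was 4 without anti-CD40L replicate 2 and at most 1 without any 1 of the other 5 libraries. Proteasome and mitochondrial ribosomal genes had 5 of 49 and 5 of 78 higher, 10.2% and 6.41% called, where 2.91% of all tested genes were called higher. The proteasome count was 5 without anti-CD40L replicate 2, 4 without replicate 3 and at most 1 without any 1 of the other 4 libraries. The mitochondrial ribosomal count was 5 and 3 without these, 2 without anti-CD40L replicate 1 and at most 1 without any 1 isotype library. Mitochondrial respiratory chain subunits had 3 of 76 higher and 1 lower, 5.26% called. Endoplasmic reticulum chaperone and unfolded protein response genes had 1 of 26 called, 3.85%, and cholesterol and fatty acid synthesis genes 1 of 30, 3.33%.

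Cytosolic ribosomal protein genes did not rise with the biogenesis factors. Of 98 tested, 4 were called lower and 1 higher, 5.1% in all, and each decrease was lost in at least 1 leave-one-out fit, with a median log2 fold change of -0.13 and of -0.18 without anti-CD40L replicate 3. Rps27a, which encodes ubiquitin fused to a ribosomal protein, was at 676, 753 and 681 CPM on isotype and at 975, 1190 and 1031 CPM on anti-CD40L, apart from isotype and 1.51-fold higher (BH-adjusted p = 0.00329, edgeR). Rps27 was at 754, 891 and 764 CPM on isotype and at 460, 585 and 454 CPM on anti-CD40L. Its near-identical copy Rps27rt had close to the same values, so reads of these genes may be shared. The call of Rps27 was lost without anti-CD40L replicate 1 or 3 or isotype replicate 2 (BH-adjusted p up to 0.069, edgeR).

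Lars2, the mitochondrial leucyl-tRNA synthetase, had the largest decrease in mean CPM of the named genes. It was at 746, 953 and 1244 CPM on isotype and at 467, 627 and 444 CPM on anti-CD40L, with groups apart but a wide spread on isotype (BH-adjusted p = 0.00457, edgeR). NR_046233, a row without a symbol in the annotations used, took 1.18%, 2.63% and 2.37% of the isotype libraries and 0.766%, 0.821% and 1.41% of the anti-CD40L libraries. Anti-CD40L replicate 3 lay above isotype replicate 1, so the groups overlapped in this row. The part of that row in the Lars2 result was not tested.

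**Figure D4:**
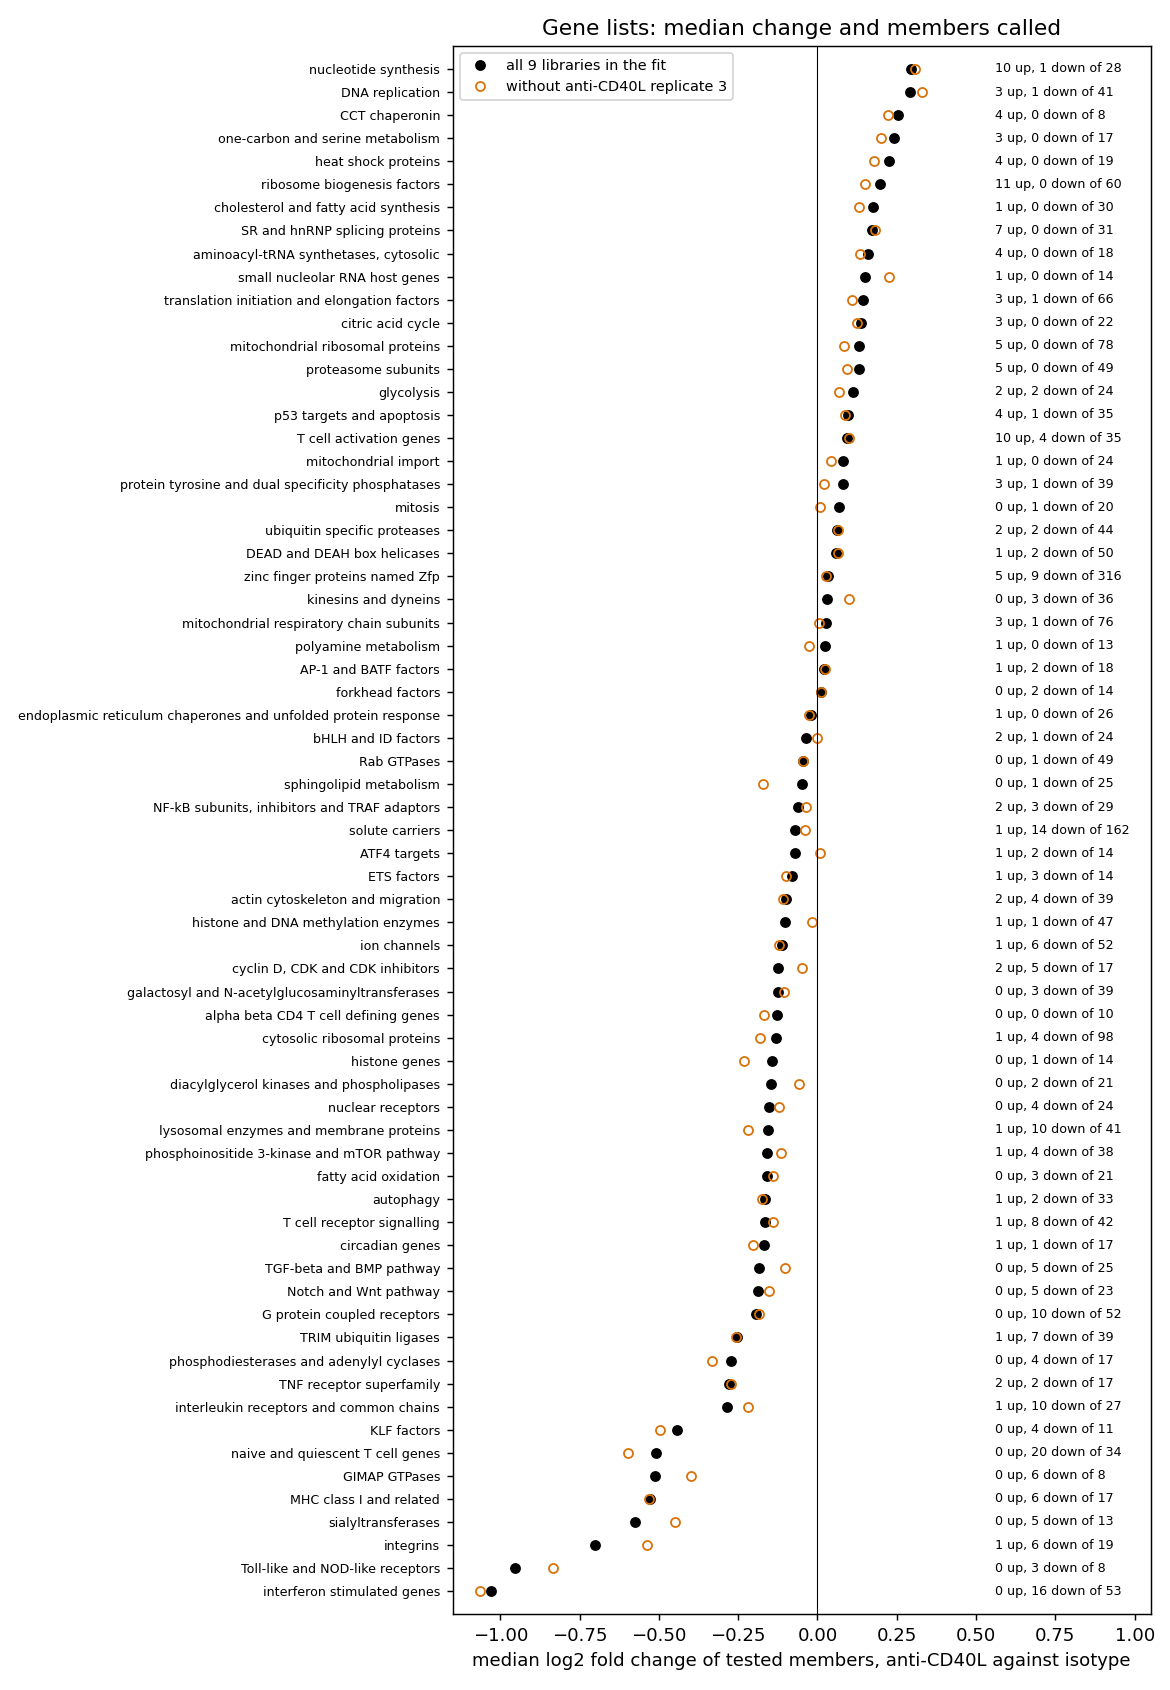
Median log2 fold change of the tested members (horizontal axis) of gene lists with at least 8 tested members (vertical axis), in the fit of all libraries (black) and without anti-CD40L replicate 3 (open orange), with the members called at the right. Nucleotide synthesis, at 0.29, the CCT chaperonin and ribosome biogenesis lie above 0, and integrins, GIMAP GTPases and interferon stimulated genes, at -1.03, lie below it, with or without replicate 3.

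Cell cycle genes were split. DNA replication genes had a median log2 fold change of 0.29 and 33 of 41 above 0. At the threshold 3 rose and 1 fell, 9.76% called, close to the 9.37% over all tested genes. The count higher was 9 without anti-CD40L replicate 3, 3 without replicate 2, 2 without isotype replicate 2 and 1 without anti-CD40L replicate 1 or isotype replicate 1 or 3. Orc2, a subunit of the origin recognition complex, was at 94.4, 86.7 and 90.4 CPM on isotype and at 137, 119 and 161 CPM on anti-CD40L, and was called in each leave-one-out fit (log2 fold change 0.62, SE 0.12; BH-adjusted p = 0.00729, edgeR). Among 17 tested genes of cyclins D, CDKs and their inhibitors, 41.2% were called, where 9.37% of all tested genes were. Cdk6 and Ccnd2, which drive entry into the cycle, rose, and Cdkn1b, Ccng2, Cdkn2d, Rbl2 and Ccnd3 fell. Cdkn1b was at 71.7, 58.5 and 67.2 CPM on isotype and at 23.6, 25 and 17 CPM on anti-CD40L, 2.96-fold lower. Cdk6 was at 88.6, 76.6 and 88.2 CPM on isotype and at 181, 127 and 113 CPM on anti-CD40L, and its call was lost without anti-CD40L replicate 1 or isotype replicate 2 (BH-adjusted p up to 0.0671, edgeR). Of the 7, Cdkn1b and Ccng2 were called in each leave-one-out fit. Each of the other 5 lost its call without anti-CD40L replicate 1 and without at least 1 isotype library, Ccnd2 also without anti-CD40L replicate 2 or 3 and Rbl2 without replicate 2 (BH-adjusted p up to 0.145, edgeR). Of 20 mitosis genes 1, the centromere histone gene Cenpa, fell, a call lost without anti-CD40L replicate 1 or 2 or isotype replicate 2 or 3 (BH-adjusted p up to 0.0921, edgeR).

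Among genes of cell death and p53, 4 of 35 rose and 1 fell, 14.3% called where 9.37% of all tested genes were. The 4 increases were called in each leave-one-out fit, and the decrease was lost in each of them. They included Bcl2l1 and the p53 targets Zmat3 and Ccng1. Bcl2l1 was at 95.3, 83.7 and 79.4 CPM on isotype and at 156, 139 and 203 CPM on anti-CD40L, with replicate 3 the highest. Its log2 fold change was 0.94 with replicate 3 and 0.78 without it (BH-adjusted p = 0.000537 and 0.001, edgeR).

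Activation genes of T cells moved both ways, with 10 of 35 higher and 4 lower, 40% called where 9.37% of all tested genes were. Il2, the T cell growth factor, was at 6.26, 3.99 and 4.7 CPM on isotype and at 15.4, 11 and 32.1 CPM on anti-CD40L. Replicate 3 was the highest by a wide margin, and the log2 fold change of Il2 was 1.93 with it and 1.41 without it (BH-adjusted p = 0.00398 and 0.00397, edgeR). Cd200 went from 89 ± 7.05 to 149 ± 21.3 CPM, and Tnfrsf4, the receptor OX40, from 113 ± 5.69 to 154 ± 12.6 CPM. The decreases were Nr4a1, Nr4a2, the chemokine gene Xcl1 and Egr1, an early response factor. Egr1 was at 302, 436 and 397 CPM on isotype and at 200, 296 and 233 CPM on anti-CD40L, nearly touching. Its call was lost without anti-CD40L replicate 1 or 3 or isotype replicate 2 or 3 (highest BH-adjusted p over all alternatives 0.0847, edgeR).

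Solute carriers were called about as often as all tested genes, but nearly all of their calls were decreases. Over all tested genes 9.37% were called, 6.46% lower and 2.91% higher. Of 162 solute carriers tested, 14 fell and 1 rose, 9.26% called. The count lower was 14 without anti-CD40L replicate 3, 13 without replicate 2, 9 without isotype replicate 2, 7 without isotype replicate 1 or 3 and 5 without anti-CD40L replicate 1. Slc12a7, a potassium chloride cotransporter, was at 115, 95.2 and 92.7 CPM on isotype and at 51, 55.9 and 47.1 CPM on anti-CD40L, without overlap (BH-adjusted p = 0.000354, edgeR). Slc7a5 and Slc3a2, the chains of the leucine transporter, were at 251 ± 6.8 and 266 ± 4.97 CPM and at 261 ± 18.8 and 264 ± 3.76 CPM and were not called (BH-adjusted p = 0.493 and 0.934, edgeR). Of 52 ion channel genes 6 fell and 1 rose, 13.5% called, with 3 lower without anti-CD40L replicate 1 or isotype replicate 1. Orai2, a subunit of store-operated calcium channels, was at 79.9, 74.4 and 72.8 CPM on isotype and at 29.5, 44.2 and 39.9 CPM on anti-CD40L, 2.01-fold lower. Kcnq5, a potassium channel, rose from 39.3 ± 1.97 to 59.3 ± 4.93 CPM (BH-adjusted p = 0.00114 for Orai2 and 0.00686 for Kcnq5, edgeR).

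Most called genes lay outside the gene lists, but tested genes as a whole did so in a larger share. Of the 11256 tested genes 2506 were in at least 1 of 76 lists, and 213 of the 328 genes called higher and 496 of the 727 called lower were in none. Among those already described, Rflnb, Smpdl3a, Als2cl, Phf1, Ergic1, Ankrd50, Cpd and Hivep1 belonged to no list.

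The comparison without anti-CD40L replicate 3 tested 11468 genes and called 990, or 8.63%, with 280 higher (2.44%) and 710 lower (6.19%). Of the 1055 genes called with all libraries, 783 were called again, all in the same direction, 193 of them higher and 590 lower. Of the 282 called genes changed at least 2-fold, 258 were called again. The 135 increases and 137 decreases that were lost kept their sign. The medians of their log2 fold changes were 0.39 with replicate 3 and 0.35 without it for the lost increases, and -0.54 and -0.47 for the lost decreases. Their median adjusted p without replicate 3 was 0.0639 and 0.0724 (BH, edgeR). Another 87 genes were called higher and 120 lower only without replicate 3, of which 2 had not passed the count filter with all libraries and are not drawn.

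**Figure D5:**
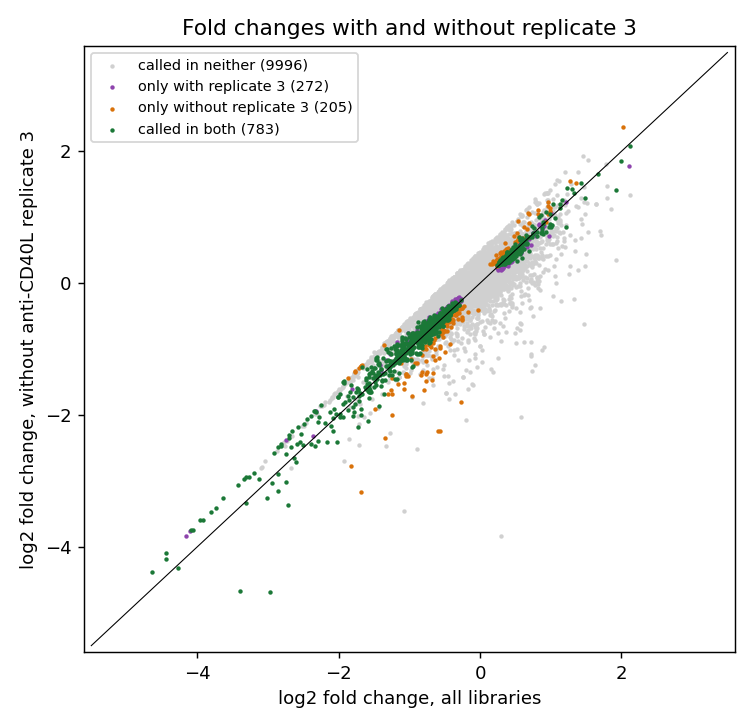
Log2 fold change of anti-CD40L against isotype in the fit of all libraries (horizontal axis) and without anti-CD40L replicate 3 (vertical axis) for each tested gene, with the line of equal values. The 783 genes called in both fits (green) lie along the line, and genes called with replicate 3 alone (purple) or without it alone (orange) lie near the threshold or, for a few at low level, off the line.

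Calls that depended on replicate 3 went both ways. The largest changes lost without it were Uba7, an enzyme that attaches the interferon-induced modifier ISG15, Hsd11b1, a steroid dehydrogenase, Gbp9, a guanylate-binding protein, Irf1, an interferon regulatory factor, and the increase of Lad1. Irf1 was at 89.9, 77.6 and 103 CPM on isotype and at 37.6, 42.8 and 37.4 CPM on anti-CD40L. Its groups lay apart, and its log2 fold change was -1.20 with replicate 3 and -1.16 without it (BH-adjusted p = 0.0107 and 0.0847, edgeR). Gbp9 and Uba7 likewise had log2 fold changes of -1.33 and -1.56 with it and -1.16 and -1.61 without it (BH-adjusted p = 0.0605 and 0.0724 without it, edgeR). Anti-CD40L replicate 1 also decided Irf1, Uba7, Hsd11b1 and Lad1, and isotype replicate 3 decided Irf1, Uba7 and Hsd11b1, with adjusted p up to 0.111, 0.0963 and 0.149 for Irf1, Uba7 and Hsd11b1 (BH, edgeR). Isotype replicate 1 decided Uba7 and Hsd11b1 too, and isotype replicate 2 Hsd11b1. The largest changes called only without replicate 3 were Ctsw, Acpp, Phldb3, Pglyrp2 and Lzts2, in which replicate 3 lay nearest to isotype. Pglyrp2, a peptidoglycan recognition protein, was at 14.4, 15.3 and 12 CPM on isotype and at 2.77, 7.8 and 11.1 CPM on anti-CD40L.

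Among called genes with a mean of at least 5 CPM, replicate 3 lay farthest from replicates 1 and 2 in Ifit1bl1, Rapgef4, Abcg1, Thra and Prf1, each with no count in replicate 3 and each also called without it. Abcg1, a cholesterol exporter, was at 31.6, 12.1 and 23.5 CPM on isotype and at 5.19, 4.15 and 0 CPM on anti-CD40L. Thra, a thyroid hormone receptor, was at 11.6, 10.5 and 10.2 CPM on isotype and at 3.49, 4.15 and 0 CPM on anti-CD40L. Replicates 1 and 2 were below isotype in both genes before replicate 3 was counted. Without it the log2 fold changes were -2.25 for Abcg1 and -1.49 for Thra (BH-adjusted p = 0.00899 and 0.00204, edgeR). The calls of Thra and Prf1 were lost without any 1 of the isotype libraries, that of Prf1 also without anti-CD40L replicate 1, and that of Ifit1bl1 without anti-CD40L replicate 1 (BH-adjusted p up to 0.0769 for Thra and 0.0935 for Prf1, edgeR). For genes of low level replicate 3 was far from the other 2: its median distance from their mean was 1.08 on the log2 scale in the lowest of the 5 bins of level and 0.132 in the highest.

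The response was also read in each anti-CD40L library for genes called without it. The isotype libraries served both to call these genes and as the base of the difference, so the values describe the libraries and test nothing, and those of the other 2 libraries are raised by the choice of genes. Genes called without replicate 3 had a median log2 difference from the isotype mean of 0.40 in replicate 3 for the 280 higher ones, where replicates 1 and 2 had 0.36 and 0.52. For 708 lower ones it was -0.81, between -0.93 and -0.77. Replicate 1 lay within the range of the other 2 as well, at 0.53 for 78 higher genes and -1.03 for 408 lower genes. Replicate 2 gave 0.26 for 431 higher genes, where the others gave 0.51 and 0.52, and -0.57 for 778 lower genes, where they gave -0.93 and -0.84. Replicate 2 was the anti-CD40L library nearest to isotype for 260 of the 328 genes called higher and 446 of the 727 called lower, and replicate 3 for 45 and 166.

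Markers of other cells were read beside these results. B cell markers had 3 of 15 tested members lower, and 1 without anti-CD40L replicate 3, and summed to 192.5 to 262.8 CPM in isotype and 152.7 to 193.1 CPM in anti-CD40L libraries. Fcer2a, the IgE receptor CD23, was at 13.1, 16.4 and 5.5 CPM on isotype and at 0.448, 1.52 and 0 CPM on anti-CD40L (BH-adjusted p = 0.00176, edgeR), while Cd79a, Cd79b and Cd74 were not called. Monocyte, macrophage and neutrophil markers summed to 8.02 to 8.68 CPM in isotype and 3.40 to 6.30 CPM in anti-CD40L libraries. Of these 19, 3 were tested and 2 fell, Fcgr3 and Itgam. These calls were lost without anti-CD40L replicate 1 or isotype replicate 2, that of Fcgr3 also without isotype replicate 3 and that of Itgam without anti-CD40L replicate 2 or isotype replicate 1 (BH-adjusted p up to 0.095 and 0.152, edgeR). In this list S100a8, S100a9, Ly6g, Elane, Cebpa and C1qa had no count in any of the 6 libraries. CD8+ and natural killer cell markers summed to 29.1 to 52.6 and 18.9 to 30.2 CPM, with 1 of 5 lower, Prf1. Dendritic cell markers summed to 40.7 to 53.2 and 46.8 to 52.9 CPM, and erythroid and platelet markers to 1.23 to 3.22 and 0 to 4.76 CPM. Stromal and endothelial markers summed to 74.9 to 109.5 and 28.7 to 40.2 CPM, nearly all of it Pecam1, an adhesion molecule that naive T cells also carry. The part of these cells in the results above was not tested.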

How the data were processed

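RNA-seq libraries of mouse CD4+ T cells were analysed from a table of estimated counts per transcript that the authors deposited. Per the submitters' processing notes, the tools named were CASAVA 1.8.2 and HISAT2 2.1.0, with build mm10. The counting tool, strand and treatment of multiply mapped reads were not given in the sources used here. Deposited values came in steps of 0.5 and were rounded to whole numbers (0.5 upward), although the design had assumed whole counts. Of 42361 rows, 42203 were named from RefSeq GRCm38.p6 and 65 from GENCODE vM21, and 93 had no symbol. The row of highest total stood for each gene. For 8193 genes with several rows, the median ratio of the second total to the first was 0.9914 among those with at least 1000 counts.

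Group differences were tested with edgeR 4.0.16 in R 4.3.3 (filterByExpr by group, TMM scaling, robust quasi-likelihood F test, 1 term per group over all 9 libraries, Benjamini-Hochberg threshold 0.05; common biological coefficient of variation 0.127). CPM used TMM-scaled totals, and SE is the log2 fold change over the square root of F. Alternatives were DESeq2 1.42.0, limma 3.58.1 voom with and without quality weights, other scalings and filters, a replicate block, thinning, and leaving out each library. The script was tested on simulated data. Genes were named by largest change or difference (15 and 10 per direction), smallest p (10) and up to 3 per list and direction. These came from called genes whose groups did not overlap. Dependence on anti-CD40L replicate 3 named further genes (5 per kind). Other names were added after their values were seen. Members, lists and motifs were chosen with earlier results of these data known. A few items, 1 gene list among them, are not reported here.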

Additional observations from a re-analysis of the deposited data

How the results depend on the processing

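With all libraries 1055 genes were called, 328 higher and 727 lower. The total was 1625 with DESeq2 and 1698 with no filter on low counts. The count of genes called higher was 643 with DESeq2, 623 with limma-voom quality weights, 628 with no filter, and 207 when all libraries were thinned to the smallest total and anti-CD40L replicate 3 was left out, an alternative chosen after seeing the data. The cause of these differences was not tested. Leaving out 1 library at a time gave 486 to 1210 genes in all, 64 to 431 higher and 407 to 779 lower. The calls lower stayed within 1.5 times of 727 under the other alternatives, and no named gene changed direction under any alternative run. Replicate numbers did not pair the libraries by the labels, and the correlations of same-numbered libraries were 0.18, 0.084 and 0.078. Each anti-CD40L library correlated best with the isotype library of its own number, a hint from the data only. A fit with the replicate number as a block called 954 genes, 274 higher and 680 lower. A fit of only the 2 groups compared called 1055 genes, 386 higher and 669 lower. Of these, 889 were also called with all 9 libraries. Of the 249 named genes, 112, 31 and 46 fell short of the threshold without anti-CD40L replicate 1, 2 or 3, and 109, 103 and 93 without isotype replicate 1, 2 or 3. Precision was lowest for genes of low level, where 548 tested genes had no count in anti-CD40L replicate 3.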
